A study of Mus musculus with 40 samples.

Results

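Oxidative phosphorylation makes ATP in the inner mitochondrial membrane. Complex I (NADH dehydrogenase) and complex II (succinate dehydrogenase) pass electrons to coenzyme Q, complex III passes them to cytochrome c and complex IV (cytochrome c oxidase) to oxygen. Protons pumped on the way drive complex V, the ATP synthase. Most subunits are encoded in the nucleus and imported, a small set is encoded by mitochondrial DNA, and hepatocytes use the pathway to power gluconeogenesis, ureagenesis and fat oxidation.

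The genes described here are the rows of the deposited liver expression table whose symbols begin with Ndufa, Ndufb, Ndufc, Ndufs, Ndufv, Uqcr, Cox4 to Cox8 or Atp5, or are Sdha, Sdhb, Sdhc or Sdhd. The pattern matched 87 rows and 85 genes of 17724, and 81 of them averaged at least 10 over the 40 libraries, the level at which 13776 genes of the whole table were kept. Cox4i2, Cox7c-ps1, Ndufa12-ps and Ndufs6b averaged less and were not tested. The 81 comprised 70 subunits (32 of complex I, 4 of complex II, 8 of complex III, 10 of complex IV and 16 of complex V), 6 complex I assembly factors of the Ndufaf family, the 3 muscle isoforms Cox6a2, Cox7a1 and Cox8b, and 2 other isoforms, Ndufa4l2 and Cox6b2. Ndufa4 was counted with complex IV, to which its protein belongs despite its name.

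The libraries came from livers of C57BL/6NJ mice produced by in vitro fertilisation of oocytes of that strain with sperm of d3/d3 males, which lack exon 3 of Ghr, the growth hormone receptor gene, in the whole body. Mice of genotype d3/d3 (d3) or wt/wt (WT), male (M) or female (F), were given 40% calorie restriction (CR) or food ad libitum (AL) for 30 days from weaning at 30 days, with 5 mice in each of 8 groups: d3 CR M, d3 AL M, WT CR M, WT AL M, d3 CR F, d3 AL F, WT CR F and WT AL F. By that account the mice were about 2 months old, whereas the extraction protocol gives 28 to 34 days. The labels name no batch or time of collection. In d3 mice of both sexes the running numbers in the titles of all AL samples lie below those of all CR samples, and in CR males those of all WT samples lie below those of all d3 samples, so that diet in d3 mice and genotype in CR males cannot be told apart from that order. A gene-level value does not show whether exon 3 of Ghr is present.

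Depth was between 21132490 and 44195300 reads per library (median 36347580). The values are reads divided by a size factor for each library, called normalised counts below, and log2 levels are log2(normalised count + 1). Hepatocyte markers averaged 17.31 to 17.93 on that scale over the 8 groups. Skeletal muscle RNA was present in some livers: the mean log2 level of 16 muscle markers, called the muscle level below, lay between 1.29 and 16.40, and it was 8 or more in 17 libraries (3 of d3 CR M, 2 of d3 AL M, 2 of WT CR M, 1 of WT AL M, 3 of d3 CR F, 2 of d3 AL F, 2 of WT CR F and 2 of WT AL F). In bulk liver, fewer cells of a type and less RNA per cell cannot be told apart.

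Levels of the members could be set against each other once divided by transcript length. Per kilobase, the catalytic subunit of ATP synthase, Atp5b, was highest with a mean of 23872 normalised counts over the 40 livers. It was followed by Atp5g3, one of 3 genes for subunit c of the membrane rotor, with 20565, and Cox4i1, the main isoform of a core-stabilising subunit of complex IV, with 18875. The median per kilobase was 11342 for complex IV, 7836 for complex III, 7716 for complex V, 5912 for complex II and 3205 for complex I. Assembly factors, which help build complex I without staying in it, had a median of 303, and the muscle isoforms 817. The lowest member was Ndufv3, an accessory subunit of the NADH-binding module, with 7.85 normalised counts per kilobase. Members were short, with a median transcript length of 849 bases for the 70 subunits, against 2828 bases for all genes tested that had a length. Reads of near-identical copies cannot be assigned with certainty, which concerns Ndufb4 and Ndufb4c and the 3 subunit c genes Atp5g1, Atp5g2 and Atp5g3.

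Promoter windows of the members are shown for 4 genes that differ in response or in isoform class. Sdhb (the iron-sulfur subunit of complex II) and Uqcrc1 (a core protein of complex III) both rose under CR, Cox6a1 (the ubiquitous isoform of a complex IV subunit) did not pass the test, and Cox8b is a muscle isoform. The windows are from RefSeq on GRCm38.p6 and run from 250 bases before to 50 bases after the annotated start, 5′ to 3′ on the gene's strand. Capitals mark matches to the motifs given below.
Sdhb, chr4:140961021-140961320, plus strand: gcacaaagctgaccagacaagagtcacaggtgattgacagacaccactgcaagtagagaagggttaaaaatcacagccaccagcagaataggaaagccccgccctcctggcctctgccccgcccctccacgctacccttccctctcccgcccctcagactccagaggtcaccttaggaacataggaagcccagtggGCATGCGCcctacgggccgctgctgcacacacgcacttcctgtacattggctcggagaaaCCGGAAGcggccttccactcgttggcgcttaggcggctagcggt
Uqcrc1, chr9:108936398-108936697, plus strand: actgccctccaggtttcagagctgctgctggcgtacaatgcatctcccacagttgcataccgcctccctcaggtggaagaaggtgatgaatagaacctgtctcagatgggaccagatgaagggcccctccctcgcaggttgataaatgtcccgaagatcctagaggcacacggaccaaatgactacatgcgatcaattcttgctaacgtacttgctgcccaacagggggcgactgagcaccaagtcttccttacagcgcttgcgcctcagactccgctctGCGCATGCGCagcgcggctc
Cox6a1, chr5:115348909-115349208, minus strand: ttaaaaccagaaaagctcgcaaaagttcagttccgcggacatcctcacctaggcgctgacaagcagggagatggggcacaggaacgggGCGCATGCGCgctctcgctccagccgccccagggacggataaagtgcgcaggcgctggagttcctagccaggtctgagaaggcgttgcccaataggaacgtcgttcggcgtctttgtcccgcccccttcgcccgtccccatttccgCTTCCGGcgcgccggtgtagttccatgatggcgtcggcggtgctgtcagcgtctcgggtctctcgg
Cox8b, chr7:140900397-140900696, minus strand: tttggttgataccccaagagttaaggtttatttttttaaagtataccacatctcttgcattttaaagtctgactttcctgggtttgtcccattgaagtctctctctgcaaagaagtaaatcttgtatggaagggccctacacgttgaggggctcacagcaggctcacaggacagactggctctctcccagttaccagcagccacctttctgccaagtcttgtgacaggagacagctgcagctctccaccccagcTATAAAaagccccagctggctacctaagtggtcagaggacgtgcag
The motifs, searched on both strands, were GCGCATGC for NRF1 (nuclear respiratory factor 1), CCGGAAG for the ETS family to which GABPA belongs, AAGATGGC for YY1, TCAAGGTCA for the estrogen-related receptors and TATAAA for the TATA box. The Sdhb window holds the NRF1 letters as their reverse complement, beginning 54 bases before the start, and the ETS letters at base 6 after it. In the Uqcrc1 and Cox6a1 windows the NRF1 letters occur on both strands in overlapping form, and Cox6a1 also holds the ETS letters as their reverse complement. Sdhb and Cox6a1 thus hold letters of the same motifs, NRF1 and ETS. The Cox8b window holds TATAAA, beginning at base 4 after the annotated start and not before it, and none of the others.

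A window was at hand for 58 of the 70 subunits (66 of the 81 members) and for 27025 genes in all. The NRF1 letters were in windows of 8 of the 58 subunits, or 13.8%, against 3.05% of all genes with a window. The ETS letters were in 14, or 24.1%, against 9.93%, and the YY1 letters in 9, or 15.5%, against 3.19%. The estrogen-related receptor letters were in windows of 2 subunits (Atp5g3 and Sdhd, chosen for naming after the search), or 3.45%, against 0.466%. TATAAA was rarer among the subunits, with 5 or 8.62%, than among all genes with a window, at 15.7%. Windows of Ndufc2, Cox5a and Atp5g1, which had the largest increase under CR in their complexes, held none of these letters. These matches are descriptions of the windows and say nothing about which factor binds.

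The diet comparison asked what CR did to the pathway in each genotype and sex. Subunits of every complex rose under CR when the 4 pairs of groups were averaged: 65 of 70 subunits were higher and 0 lower, with a median log2 change of 0.26 (1.20-fold). Members rose in males of both genotypes and in d3 females, and in WT females no member passed the test. On the deposited scaling the median change was highest in d3 females, whereas with libraries scaled to total reads it was 0.55 in d3 females and 0.57 in WT males. By limma with p-values adjusted over all 13776 genes, 68 of the 81 members were higher in the mean of the 4 pairs, where 23.2% of all genes tested were higher, and 1 member was lower, where 22.6% of all genes were. The median log2 change over all genes tested was 0.04. Every complex took part: 28 of 32 subunits of complex I, all 4 of complex II, all 8 of complex III, 9 of 10 of complex IV and all 16 of complex V were higher, with medians between 0.26 and 0.27.

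By pair, 20 of 81 members were higher in d3 males, where 9.00% of all genes tested were, and the median log2 change was 0.23. In WT males 28 members were higher, where 10.1% of all genes were, with a median of 0.30. These male counts depend on single libraries: leaving out the d3 CR male at replicate 4 gave 10 in d3 males, and 11 to 13 came without d3 CR males 2 or 3 or d3 AL males 1, 2 or 3. In WT males, leaving out the WT AL male at replicate 4 gave 12, and 17 or 18 came without WT CR males 4 or 5 or WT AL males 3 or 5. Without all libraries of muscle level 8 or more the counts were 1 in d3 males and 8 in WT males. The largest count was in d3 females, with 66 members higher where 8.33% of all genes were, and a median of 0.54. The d3 female count also fell without the libraries of high muscle level or with a transcript length trend removed, and nearly all of it was lost with both steps, as given below. In WT females 0 members were higher, where 4.56% of all genes were, and 0 were lower, where 7.11% were; the median was 0.02, edgeR also called 0, and 6 members had an unadjusted limma p under 0.05, where 25.8% of all genes had. No member was lower in the other 3 pairs by limma, where 10.5% of all genes were lower in d3 males, 11.4% in WT males and 9.55% in d3 females. Of the 81 members, 47 had a positive change in all 4 pairs and 31 in 3 of them, and 17 passed the test in 3 pairs. The matching shares over all genes are not given. The all-gene median change was itself positive in each pair, at 0.02 to 0.04. Values of the 5 CR and the 5 AL mice did not overlap, in either direction, for 20 members in d3 males, where 16.3% of all genes tested did not overlap, for 17 in WT males, where 14.2% did not, for 53 in d3 females, where 10.3% did not, and for 0 in WT females, where 9.64% did not.

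**Figure D1:**
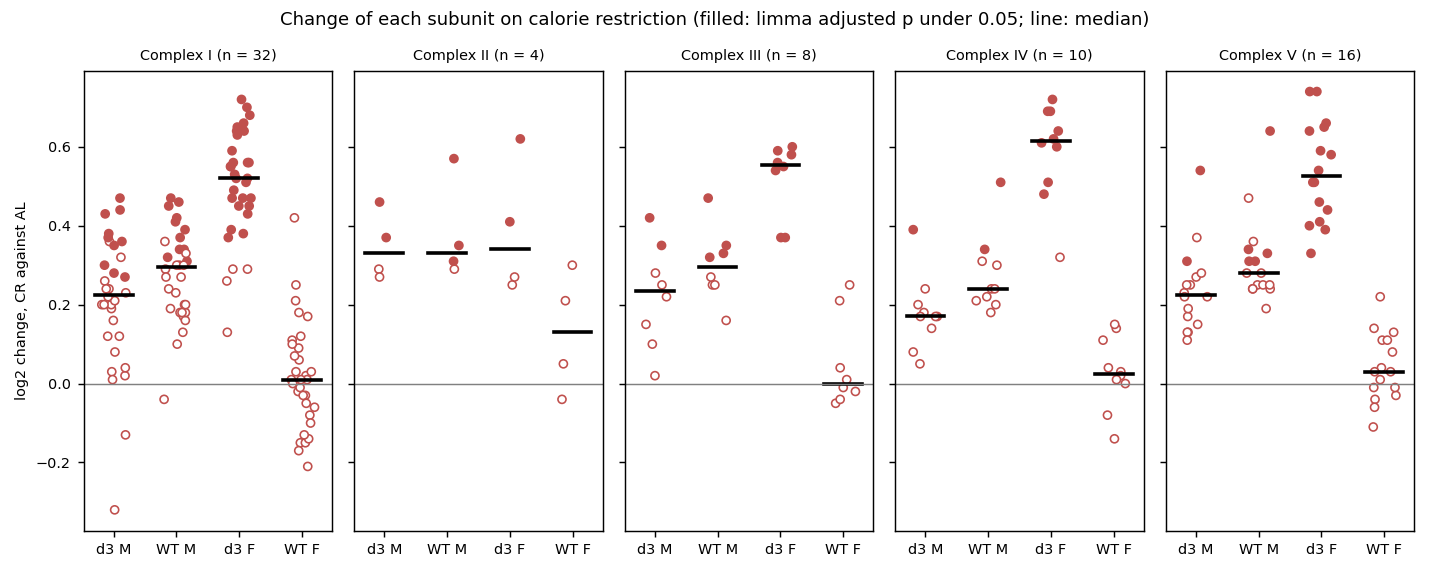
Log2 change under CR against AL (y axis) of each of the 70 subunits, in 1 panel per complex and, along the x axis, the 4 pairs d3 M, WT M, d3 F and WT F. Filled points passed limma's adjusted p of 0.05 and lines are medians: d3 F lies highest with a subunit median of 0.54, and WT F lies around 0 with no filled point.

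The mean log2 level of the 70 subunits summarised each liver. It was 11.89 ± 0.13 in d3 CR M and 11.67 ± 0.12 in d3 AL M (SD, n = 5 each). In WT males it was 12.03 ± 0.11 under CR and 11.73 ± 0.17 under AL. The groups of d3 females stood furthest apart, with 12.20 ± 0.17 under CR, from 12.03 to 12.44, and 11.69 ± 0.18 under AL, from 11.45 to 11.86, without overlap. In WT females the level was 11.94 ± 0.12 under CR and 11.91 ± 0.19 under AL, a difference smaller than either SD. WT CR F thus lay near the other CR groups, while WT AL F had the highest mean of the 4 AL groups.

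**Figure D2:**
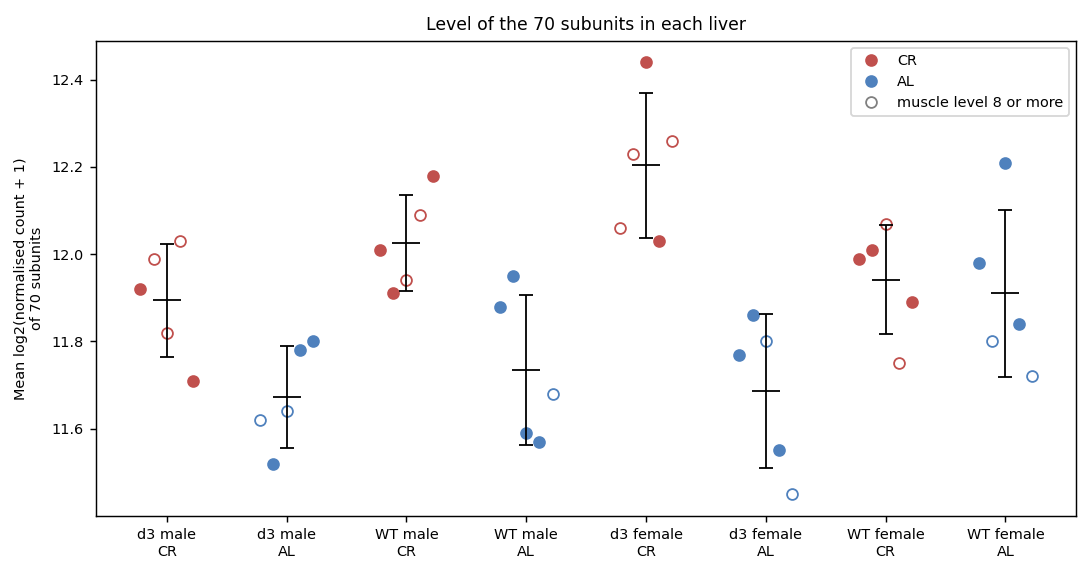
Mean log2(normalised count + 1) of the 70 subunits (y axis) in each of 40 livers, by group along the x axis, red for CR and blue for AL. Bars are the mean and SD of 5 livers and open points have a muscle level of 8 or more; the CR and AL livers of d3 females do not overlap, while those of WT females do.

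Complex I had the most members, and Ndufc2, Ndufb10 and Ndufa5, which rose most in the mean, had their largest change in d3 females and their smallest in WT females. Ndufc2, an accessory subunit of the membrane arm, rose by 0.42 ± 0.05 on the log2 scale in the mean of 4 pairs (± SE, limma adjusted p = 4.81e-08). In d3 males Ndufc2 had 2552, 2736, 2542, 2947 and 2392 normalised counts under CR, against 1769, 1779, 1793, 1983 and 2155 under AL. WT males had 2918, 2651, 2598, 2933 and 2800 for Ndufc2 under CR, against 2208, 2309, 1696, 1957 and 2029 under AL. All CR males of either genotype were thus above all AL males of their genotype. Among d3 females Ndufc2 had 2585, 2755, 3449, 2628 and 3198 under CR, against 2097, 2209, 2248, 1968 and 1442 under AL, again with no overlap. In WT females the CR values of 2712, 2771, 2333, 2211 and 2594 overlapped the AL values of 2214, 2094, 2634, 2314 and 1909. Ndufb10, another membrane-arm accessory subunit, changed by 0.43 in d3 males, 0.47 in WT males, 0.64 in d3 females and 0.12 in WT females, and its groups were apart in the first 3. Ndufa5, an accessory subunit of the peripheral arm, rose by 0.40 ± 0.08 in the mean, with a change of 0.72 in d3 females and −0.03 in WT females. Ndufs1, the largest core subunit, which carries iron-sulfur clusters, passed the test in d3 males (0.38, limma adjusted p = 0.0452) and WT males (0.42, limma adjusted p = 0.0251) but had 0.29 in d3 females (limma adjusted p = 0.155). The 4 complex I subunits that did not pass in the mean were Ndufa8, with 0.14 ± 0.06, and Ndufa1, Ndufv3 and Ndufa7, with 0.11, 0.10 and −0.02; the last 3 are named here after their values were seen.

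Complex II is the only complex that also serves the TCA cycle and the only one encoded wholly in the nucleus. Sdhb, its iron-sulfur subunit (on GRCm38 chromosome 4 from 140961203 to 140979193), rose by 0.49 ± 0.06 in the mean of 4 pairs (limma adjusted p = 5.86e-08). In d3 males Sdhb had 7496, 7656, 8098, 8483 and 7429 normalised counts under CR, against 5495, 5504, 5864, 5909 and 5687 under AL. WT males had 8314, 7515, 7291, 7947 and 8382 for Sdhb under CR, against 5486, 6637, 4931, 4654 and 5122 under AL. The lowest CR male was above the highest AL male in both genotypes. Among d3 females Sdhb had 7410, 7936, 9953, 7089 and 10542 under CR, against 6215, 6480, 6259, 5616 and 3577 under AL. Among WT females it had 8217, 8182, 8486, 6498 and 6730 under CR, against 6068, 5466, 7285, 6326 and 5769 under AL. Diet groups were apart in d3 females, where the AL mouse at 3577, from a library of muscle level 8 or more, was far below its group, and overlapped in WT females. Per pair the log2 changes were 0.46 in d3 males, 0.57 in WT males, 0.62 in d3 females and 0.30 in WT females, the last with a limma adjusted p of 0.111. Sdhc, a membrane anchor that binds haem, rose by 0.29, the flavoprotein Sdha by 0.26 and the other anchor Sdhd by 0.21 in the mean. Sdha had changes of 0.21 to 0.29 in the 4 pairs and passed the test in none of them singly.

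Complex III passes electrons from coenzyme Q to cytochrome c. Its core proteins led: Uqcrc1 (chromosome 9, 108936633 to 108949623) rose by 0.42 ± 0.06 (limma adjusted p = 1.35e-07) and Uqcrc2 by 0.31 in the mean. In d3 males Uqcrc1 had 5170, 5957, 5923, 6040 and 5331 normalised counts under CR, against 4033, 4107, 4485, 4447 and 4185 under AL. WT males had 5787, 5293, 5923, 5658 and 5941 for Uqcrc1 under CR, against 4278, 4970, 4026, 3623 and 3904 under AL. Neither genotype showed overlap in males. Among d3 females Uqcrc1 had 5465, 5857, 6011, 4333 and 7073 under CR, against 4190, 4275, 4406, 3997 and 2818 under AL. Among WT females it had 5073, 5249, 6235, 4285 and 4304 under CR, against 4273, 4159, 4653, 4008 and 3880 under AL. The d3 female groups touched only through the CR mouse at 4333, and the WT female groups overlapped. Uqcrb, which binds near the quinone site, rose by 0.29 in the mean, with a change of 0.60 in d3 females and −0.02 in WT females. Uqcrfs1, the Rieske iron-sulfur protein that carries electrons, rose by 0.25, and the small subunits Uqcr10, Uqcrq, Uqcr11 and Uqcrh by 0.20 to 0.28.

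Complex IV reduces oxygen. Cox5a, one of its early-assembled nuclear subunits, rose by 0.43 ± 0.06 in the mean (limma adjusted p = 3.44e-07). In d3 males Cox5a had 5999, 6451, 5438, 5901 and 4640 normalised counts under CR, against 4341, 3691, 4444, 4748 and 4475 under AL. WT males had 6060, 5826, 6130, 6730 and 7185 for Cox5a under CR, against 4807, 5235, 4194, 3786 and 4428 under AL. The WT male groups were apart, and in d3 males 1 CR mouse lay within the AL range. Among d3 females Cox5a had 6741, 7923, 7800, 5501 and 7325 under CR, against 4464, 5500, 4920, 3752 and 3378 under AL. Among WT females it had 5729, 5414, 6953, 4714 and 5491 under CR, against 5164, 4863, 6101, 4879 and 4673 under AL. The d3 female groups were apart by the narrow gap of 5501 under CR and 5500 under AL, and the WT female groups overlapped. Cox7a2, the liver form of a subunit linked to supercomplexes, rose by 0.33 and the accessory subunit Cox6c by 0.32 in the mean. Cox4i1, the ubiquitous form of its subunit, rose by 0.23 (limma adjusted p = 0.0012), with 0.51 in d3 females and 0.00 in WT females. Cox6a1 was the only subunit of complex IV that did not pass in the mean, with 0.12 ± 0.08 and a limma adjusted p of 0.247.

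Complex V was led by Atp5g1, whose change equalled that of Sdhb as the largest of the 70 subunits; it is 1 of the 3 genes that encode the same mature subunit c (chromosome 11, 96068852 to 96075670). Atp5g1 rose by 0.49 ± 0.06 in the mean (limma adjusted p = 3.07e-08). In d3 males Atp5g1 had 5351, 6455, 5010, 5902 and 4693 normalised counts under CR, against 3572, 3415, 4047, 3846 and 3851 under AL. WT males had 6302, 5619, 5949, 6279 and 6959 for Atp5g1 under CR, against 4016, 4661, 3244, 4181 and 3926 under AL. Diet groups of males were apart in both genotypes. Among d3 females Atp5g1 had 7184, 7107, 8571, 5667 and 7884 under CR, against 4864, 5403, 5045, 4496 and 3450 under AL. Among WT females it had 6164, 6058, 7088, 5035 and 5213 under CR, against 5174, 5106, 6998, 4821 and 4756 under AL. The d3 females were apart and the WT females overlapped, with a change of 0.14. Its fellow subunit c genes Atp5g2 and Atp5g3 rose by 0.36 and 0.21 in the mean. The catalytic head subunits Atp5a1, Atp5b and Atp5c1 rose by 0.26, 0.31 and 0.30. Atp5k (subunit e, which helps join ATP synthase dimers) rose by 0.33 and Atp5e (the epsilon subunit of the central stalk) by 0.26.

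**Figure D3:**
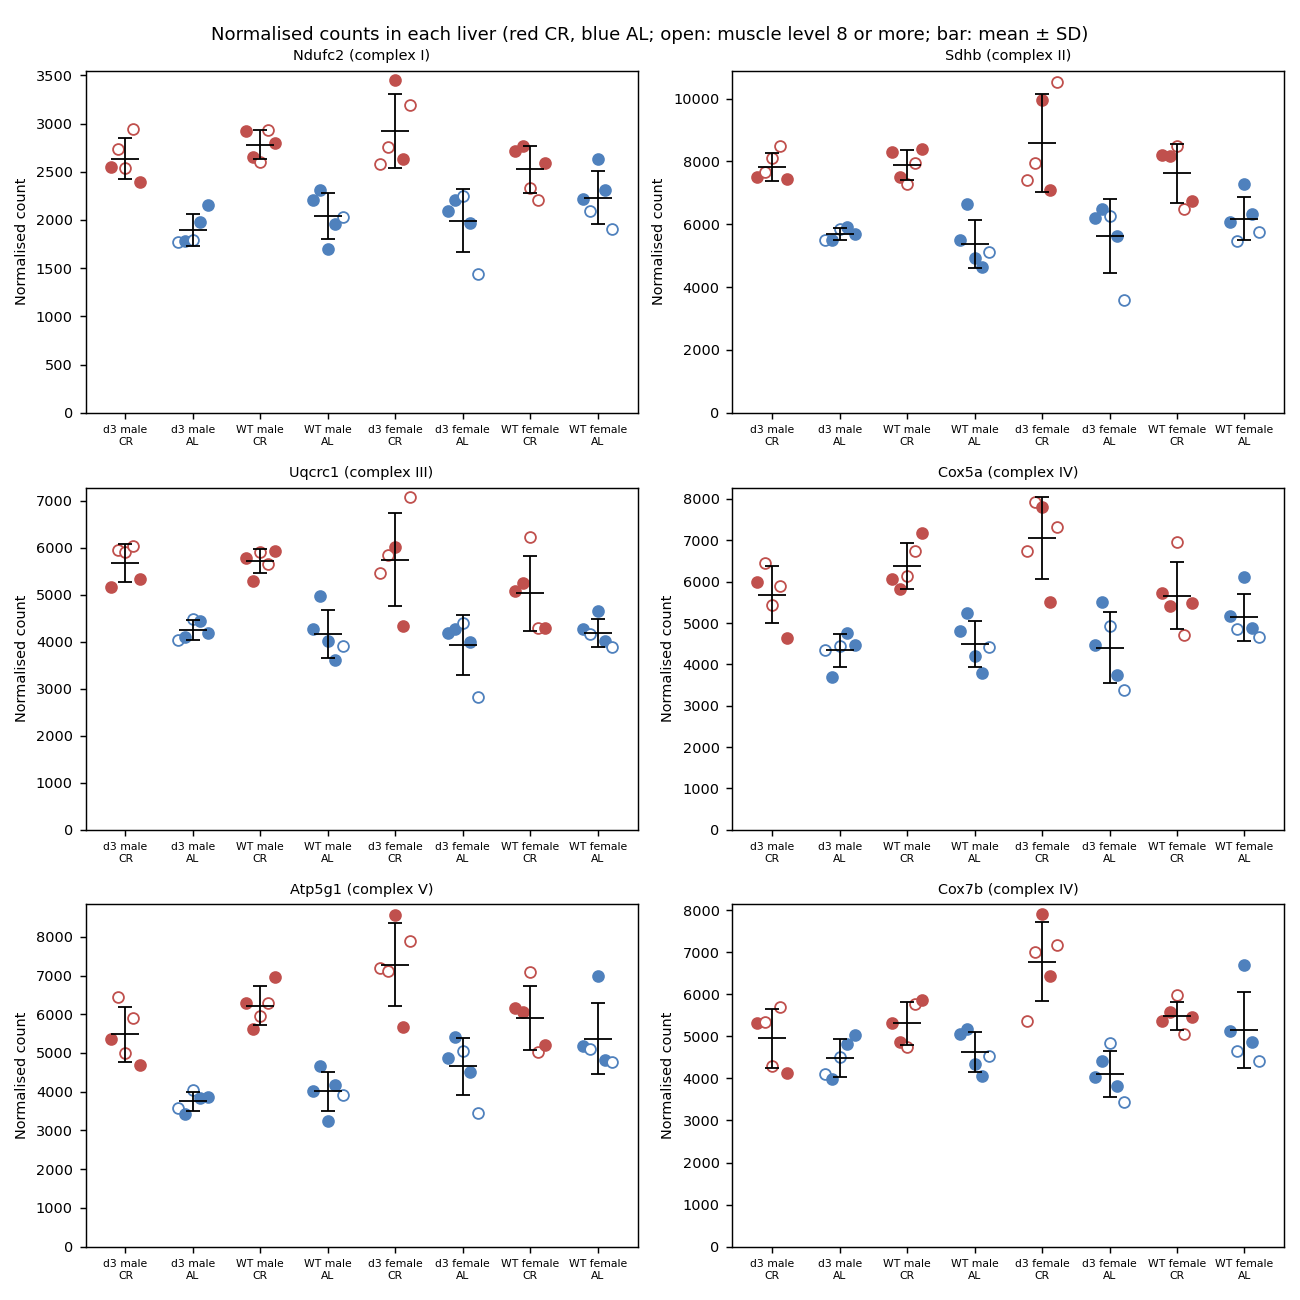
Normalised counts (y axis) of Ndufc2, Sdhb, Uqcrc1, Cox5a, Atp5g1 and Cox7b in each liver, 1 panel per gene with the 8 groups along the x axis. Sdhb shows the male groups apart in both genotypes, and Cox7b shows d3 CR females, from 5374 to 7919, above every d3 AL female.

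Of the 6 assembly factors, 2 were higher in the mean of 4 pairs and 0 were lower, with a median log2 change of 0.16; over all genes tested 23.2% were higher and 22.6% lower. Ndufaf5, a factor that modifies a core subunit of the peripheral arm, rose by 0.68 ± 0.13 (limma adjusted p = 8.13e-05). In d3 males Ndufaf5 had 147, 198, 171, 170 and 152 normalised counts under CR, against 68.7, 70.7, 141, 95.9 and 85.8 under AL, without overlap. The d3 females had 184, 603, 226, 133 and 176 under CR, against 110, 134, 92.8 and 102 in 4 of the 5 AL mice. The groups overlapped, with AL replicates 2 and 3, which include the AL mouse not listed, above the lowest CR value of 133. The highest CR value, 603, is from the library with the highest muscle level. Ndufaf6, needed early in assembly, rose by 0.44 ± 0.07. Ndufaf4 had 0.18 ± 0.08 with a limma adjusted p of 0.0592, and Ndufaf1, Ndufaf3 and Ndufaf8 had changes between −0.07 and 0.15 and did not pass.

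The other isoforms went apart from each other. Cox6b2, the testis form of a complex IV subunit, was the only member that fell, by 1.26 ± 0.29 on the log2 scale in the mean of 4 pairs (limma adjusted p = 0.00062). In d3 males Cox6b2 had 18.4, 13.7, 12.5, 14.8 and 2.81 normalised counts under CR, against 22.2, 24.7, 31.8, 20.9 and 72.6 under AL. Among d3 females it had 18, 20.7, 8.41, 16 and 7.77 under CR, against 38.6, 28.8, 34.2, 39.6 and 81 under AL. Both d3 pairs were apart at these low levels, and both WT pairs overlapped. Ndufa4l2, a hypoxia-induced relative of Ndufa4, rose by 0.54 ± 0.15 (limma adjusted p = 0.0033), at a mean level of 56.8 normalised counts per kilobase over all livers.

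Other genes of mitochondrial energy metabolism are given by lists that, like the members, were drawn up with earlier results of the data known; counts are for the mean of 4 pairs, where 23.2% of all genes tested were higher and 22.6% lower. Of the 13 subunits encoded by mitochondrial DNA, 1 was higher (mt-Co2, a catalytic core subunit of complex IV, by 0.21) and 3 were lower (mt-Nd4l by −0.31, mt-Nd5 by −0.29 and mt-Nd2 by −0.21, all membrane-arm subunits of complex I) in the mean of 4 pairs, with a list median of −0.14. The 3 lower genes were near the share over all genes. These changes are on the deposited scaling. The mean share of reads taken by the 13 subunits was higher under CR in each pair, as given below. Scaled to total reads, the all-gene median of the mean contrast was itself 0.24. Of 16 tested TCA cycle genes, 10 were higher and 1 lower, with a median of 0.33. Idh2, the mitochondrial NADP-linked isocitrate dehydrogenase, rose by 0.95 ± 0.10, Dlat, a subunit of pyruvate dehydrogenase, by 0.64, and Idh3g, a regulatory subunit of NAD-linked isocitrate dehydrogenase, by 0.44. Idh2 averaged 7448 ± 1040 normalised counts in d3 CR M and 3640 ± 902 in d3 AL M, and 6957 ± 1077 in WT CR M and 2982 ± 331 in WT AL M (SD, n = 5 each). Among 14 electron carriers and coenzyme Q genes, 7 were higher, with Coq7 and Coq6 of coenzyme Q synthesis at 0.40 and 0.36. The 1 that fell was Etfdh, which feeds electrons from fat oxidation to coenzyme Q, by 0.64 ± 0.07 (limma adjusted p = 1.43e-09). Etfdh averaged 8447 ± 137 normalised counts in d3 CR M and 14607 ± 2618 in d3 AL M, and 8595 ± 446 in WT CR M and 15193 ± 3159 in WT AL M. Of 34 assembly factors outside the symbol pattern, 8 were higher, near the share over all genes, and 5 lower, among them Cox10 (haem synthesis for complex IV) at 0.39 and Atpaf2 (a complex V assembly factor) at −0.58. Of 14 regulators of mitochondrial biogenesis, 3 were higher and 4 lower, with a median of −0.05. The coactivators Ppargc1b and Ppargc1a rose by 1.01 ± 0.12 and 0.50 ± 0.15, and the nuclear receptor Esrra by 0.57 ± 0.18. The 4 that fell, named after their values were seen, were Twnk, the mitochondrial DNA helicase, with −0.27, Polrmt, the mitochondrial RNA polymerase, with −0.26, and the transcription factor genes Gabpb1 and Nrf1 with −0.16 and −0.14.

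As a share of reads, the 70 subunits took more of every CR library than of every AL library of the same sex and genotype. Their share was 1.33% ± 0.109 in d3 CR M and 0.915% ± 0.0659 in d3 AL M (SD, n = 5 each). It was 1.32% ± 0.0643 in WT CR M and 0.897% ± 0.119 in WT AL M. In d3 females it was 1.5% ± 0.145 under CR and 1.07% ± 0.0798 under AL, and in WT females 1.39% ± 0.228 under CR and 1.10% ± 0.0865 under AL. The 4 pairs were apart, WT females included, with ratios of mean shares of 1.45 in d3 males, 1.47 in WT males, 1.4 in d3 females and 1.26 in WT females. In WT females the gap was very narrow, as the lowest CR and the highest AL share both round to 1.22%. The highest WT CR F share, 1.78% against a group median of 1.29%, came from a library of muscle level 14.49. The result in WT females and the order of the other pairs therefore depend on the scaling. When reads were divided by library totals in place of the deposited size factors, the median of all genes itself shifted by 0.32 in d3 males, 0.30 in WT males, 0.03 in d3 females and 0.27 in WT females. Members called higher were then 71 in d3 males, where 31.2% of all genes were, 74 in WT males, where 28.8% were, 67 in d3 females, where 8.17% were, and 26 in WT females, where 17.3% were. The medians of the members became 0.52, 0.57, 0.55 and 0.27 in that order of pairs, so that in WT females they lay no higher than all genes, and in d3 males, WT males and d3 females they lay above all genes by more than 0.1. Subunits encoded by mitochondrial DNA took 9.34% ± 0.252 of reads in d3 CR M and 8.00% ± 0.523 in d3 AL M, and 8.82% ± 0.928 in WT CR M and 7.34% ± 0.679 in WT AL M, without overlap in either male pair. In females the groups overlapped, with 6.99% to 11.3% in d3 CR F and 7% to 8.97% in d3 AL F, and 7.5% to 11% in WT CR F and 7.23% to 9.05% in WT AL F.

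Transcript length moved with the result in d3 females. There, other genes of 600 bases or less had a median log2 change of 0.36 under CR and other genes over 2000 bases −0.04, while members had 0.59 in the shortest class and 0.37 in the longest. In d3 males the order among members was the opposite, with 0.16 in the shortest and 0.37 in the longest class, where other genes had 0.07 and 0.01. In WT males members had 0.25 and 0.32 in these classes and other genes 0.15 and 0.00. Within each of the 4 length classes the median of the members was above that of the other genes in d3 males, WT males and d3 females. With the length trend of the other genes removed from each library, 19 members were higher in d3 males (9.51% of all genes), 14 in WT males (9.50%), 46 in d3 females (6.79%), 0 in WT females (4.73%) and 59 in the mean of 4 pairs (22.7%), whose median was 0.18 for members. Without the 17 libraries of high muscle level, 1 member was higher in d3 males (3.95% of all genes), 8 in WT males (8.52%), 25 in d3 females (4.03%), 0 in WT females (1.63%) and 36 in the mean of 4 pairs (16.7%), with fewer mice in each group. With both steps 22 were higher in the mean (15.9% of all genes), and the median of the members was 0.08 in d3 males, 0.13 in WT males and 0.17 in d3 females. Only a few members were then higher in any single pair. In d3 females nearly all of the 66 members that were higher in the main fit no longer passed. Their count with both steps was far below that with either step alone, as the closing section on processing gives.

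**Figure D4:**
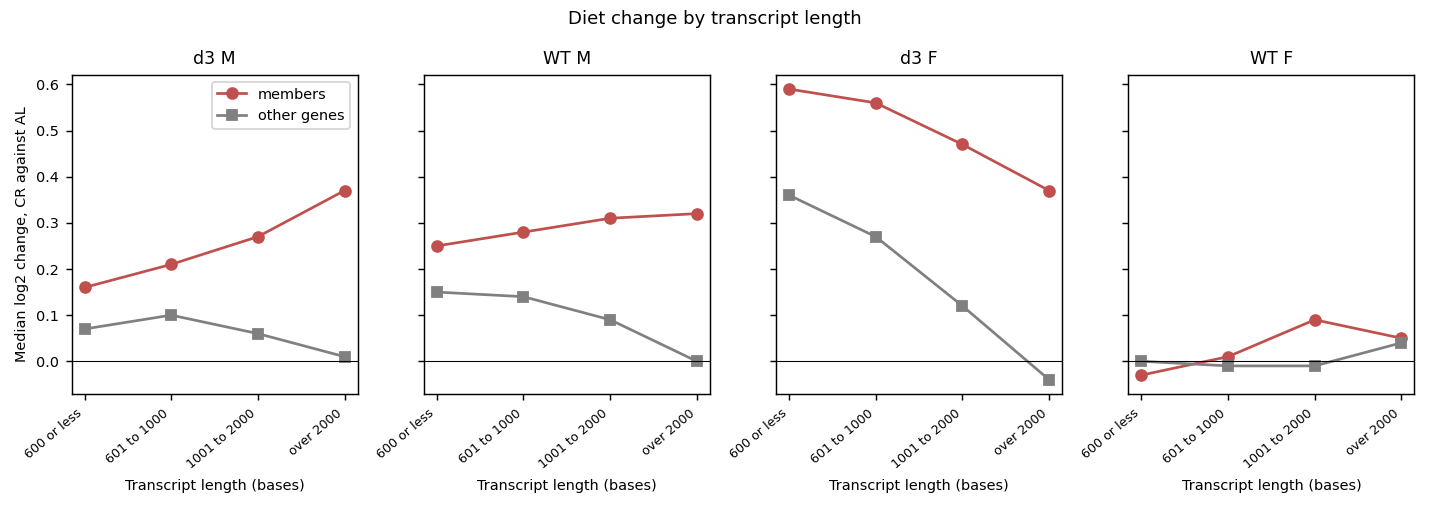
Median log2 change under CR against AL (y axis) of members (red) and other genes (grey) in 4 classes of transcript length (x axis), 1 panel per pair. In d3 females both lines fall with length, from 0.59 to 0.37 for members and from 0.36 to −0.04 for other genes, while in d3 males the members' line rises.

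Subunits varied together among livers of the same group. After the group means were subtracted, the median Pearson correlation over 2415 pairs of subunits was 0.72 across the 40 libraries, and 96.9% of pairs were positive. It was 0.84 within complex IV, 0.78 within complex V, 0.71 within complex I, 0.68 within complex III and 0.64 within complex II. Cox6b1, a complex IV subunit near cytochrome c, had the highest median correlation with the other subunits, 0.84. The lowest were Ndufv3 with −0.05, Sdha with 0.15, and Ndufs1 and Atp5g2 with 0.22 each. These points share library, depth and length composition: the subunit level itself correlated at 0.72 with the deviation of other short transcripts in the same library, at −0.09 with the muscle level, and at 0.15 with the level of mitochondrially encoded subunits. No test was made of these correlations. Complex II stood a little apart, with a correlation of 0.62 between its level and that of complex I, against 0.97 for complex V, 0.96 for complex III and 0.92 for complex IV.

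The sex comparison was small outside d3 mice under CR. In d3 CR mice, 34 of 81 members were lower in males than in females and 0 were higher, where 3.62% of all genes tested were lower and 5.18% higher; the median was −0.32 for members. The 34 comprised 17 subunits of complex I, 4 of complex III, 6 of complex IV, 7 of complex V and 0 of complex II. In the mean of 4 pairs 21 members were lower in males and 1 was higher, where 10.3% of all genes were lower and 13.6% higher, with a median of −0.11. In WT AL mice 2 members were lower in males, Ndufc1 by 0.53 and Atp5g1 by 0.42, where 3.06% of all genes were lower and 3.42% higher. In WT CR and d3 AL mice limma and edgeR both called 0 members, and 2 and 3 members had an unadjusted limma p under 0.05, where 19.0% and 19.7% of all genes had. In those comparisons 2.56% of all genes were higher in males and 2.01% lower in WT CR, and 3.44% higher and 2.71% lower in d3 AL.

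Small subunits led the difference in d3 CR mice. Atp5e, the epsilon subunit, had 4079, 4024, 3015, 4012 and 2784 normalised counts in d3 CR males, against 4816, 6349, 7572, 5248 and 5283 in d3 CR females. All 5 males lay below all 5 females, and the log2 change was −0.71 ± 0.13 (limma adjusted p = 0.00137). Atp5k, subunit e, was lower in males by 0.65, Uqcr11 and Ndufc1 by 0.55 each, and Uqcrh (the acidic hinge protein of complex III) and Ndufa3 (a membrane-arm subunit) by 0.54 each. Values of males and females did not overlap for 23 members in d3 CR mice, where 5.47% of all genes tested did not overlap. The counts were 2 in WT AL mice, 1 in d3 AL mice and 0 in WT CR mice, where 5.57%, 7.87% and 6.06% of all genes did not overlap, so that these 3 counts lay below the share over all genes. The 2 were Atp5g1 and Uqcrb and the 1 was Ndufab1, the acyl carrier protein, Uqcrb and Ndufab1 being named after their values were seen. Over the 4 pairs, Atp5e was lower in males by 0.32, Atp5k and Ndufc1 by 0.30, Atp5g1 by 0.26, Ndufa7 by 0.25 and Ndufb8 by 0.24. Sdha was the 1 member higher in males, by 0.17 ± 0.06 (limma adjusted p = 0.043).

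The same length pattern accompanied the sex difference. In d3 CR mice, members of 600 bases or less had a median log2 change of −0.44 in males against females and members over 2000 bases −0.03, where other genes had −0.36 and 0.05. With the length trend removed 4 members were lower in d3 CR males, where 2.04% of all genes were, and in a fit of those 2 groups alone 0 were. Leaving out the male at replicate 5 gave 10 calls, the female at replicate 3 gave 13 and the male at replicate 3 gave 20. Scaled to library totals, 47 members were lower in males in WT AL mice, where 12.1% of all genes were, and 18 in d3 AL mice, where 18.1% were, with all-gene medians of −0.20 and −0.25. In d3 CR mice 29 members were lower, where 2.49% of all genes were, with an all-gene median of 0.02.

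Genotype gave no call among the members. Limma called 0 of 81 members in d3 against WT in each of the 4 pairs and in their mean, and edgeR likewise called 0. Few genes of any kind were called: 0.0290% were higher and 0.0145% lower in AL males, 0.0290% higher and 0.109% lower in CR males, and 0% in either direction in females. In AL females the members' median was −0.22, with 30 of 81 at an unadjusted limma p under 0.05, where 6.35% of all genes tested were, and in CR females it was 0.29, with 50 of 81, where 7.45% of all genes were. In males the medians were −0.07 under AL and −0.14 under CR, with 0 and 9 members at an unadjusted limma p under 0.05, where 8.14% and 8.03% of all genes were. The subunit level placed these values side by side: in females it was 11.69 ± 0.18 in d3 and 11.91 ± 0.19 in WT under AL, and 12.20 ± 0.17 in d3 and 11.94 ± 0.12 in WT under CR (SD, n = 5 each). The groups overlapped in each of these pairs. In the authors' deposited table of d3 against WT comparisons, 0 members were called in any of the 4, with an adjusted p listed for 76 to 78 of the 81 members in each, and the smallest adjusted p there was 0.32, for Cox6c in CR females.

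The difference of the diet response between groups was tested as an interaction. Between genotypes in females, the median difference of the members' diet changes was 0.52 on the log2 scale, higher in d3, with 61 of 81 at an unadjusted limma p under 0.05, where 11.1% of all genes were, but 0 called, where 0% of all genes were called. It was −0.06 in males, with 0 called and 0 at an unadjusted p under 0.05, where 4.04% of all genes were at such a p, 0.0145% were called higher and 0.00726% lower. EdgeR called 0 in both. Between the sexes in WT mice the median was 0.26, with 0 called by limma or edgeR and 18 at an unadjusted p under 0.05, where 11.2% of all genes were at such a p, 0.203% were called higher and 0.145% lower. In d3 mice the median was −0.31, lower in males, and 1 member was called, Cox7b, where 1.05% of all genes were called in each direction. For no member was the diet change called different between d3 and WT females. Scaled to total reads, the all-gene median was itself −0.25 between genotypes in females and 0.28 between the sexes in d3 mice. Between genotypes in females, Ndufc2, Sdhb, Uqcrc1, Cox5a and Atp5g1 then had 0.14, 0.08, 0.05, 0.31 and 0.26. On the deposited scaling, other genes of 600 bases or less differed there by 0.39 and members by 0.60. Over 2000 bases these medians were −0.08 and 0.35.

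Cox7b, a small X-linked subunit of complex IV (chromosome X, 106015700 to 106022450), was that member, with an interaction of −0.59 ± 0.16 (limma adjusted p = 0.04). In d3 males Cox7b had 5321, 5344, 4301, 5707 and 4128 normalised counts under CR, against 4115, 3979, 4503, 4827 and 5026 under AL. Among d3 females it had 5374, 7007, 7919, 6440 and 7171 under CR, against 4028, 4411, 4836, 3810 and 3429 under AL. The male groups overlapped, with a change of 0.14, and the female groups were apart, with a rise of 0.72 ± 0.11. When each of the 20 libraries was left out in turn the call held in 8 of the fits, with values from −0.67 to −0.52, and with the length trend removed the adjusted p was 0.0795. Scaled to total reads the interaction was −0.30 ± 0.15 (limma adjusted p = 0.196).

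The muscle isoforms tracked the muscle level of the libraries and did not pass the test in any diet comparison of means. Cox6a2, which replaces Cox6a1 in heart and skeletal muscle, was listed between 0 and 6808 normalised counts. In d3 males Cox6a2 had 0, 1481, 619, 846 and 0 under CR, against 166, 0, 1157, 4.92 and 0 under AL. WT males had 2.03, 0.88, 2596, 287 and 8.16 under CR, against 0, 1.2, 1.88, 2.62 and 478 under AL. Single livers thus stood far above the rest of their groups. Among d3 females Cox6a2 had 1724, 6808, 0, 0 and 2036 under CR, against 26.7, 1.6, 959, 0 and 107 under AL. Among WT females it had 0, 0, 5992, 207 and 1.6 under CR, against 0, 87.9, 4.01, 0 and 1231 under AL. The 2 highest values, 6808 and 5992, belong to the livers with the 2 highest muscle levels, 16.40 and 14.49. Across the 40 livers the log2 level of Cox6a2 correlated with the muscle level at r = 0.99, that of Cox7a1 at 0.93 and that of Cox8b at 0.93. They also correlated with marker levels of other tissues, Cox6a2, Cox7a1 and Cox8b with cardiac muscle at 0.83, 0.87 and 0.81, with white fat at 0.75, 0.79 and 0.86 and with brown fat at 0.69, 0.74 and 0.84. Cox6a1 and Cox7a2, the partners of Cox6a2 and Cox7a1, did not share this, with correlations with the muscle level of −0.35 and −0.06. Cox4i1, which is not a partner of the muscle isoforms, had 0.07. Cox8a, the partner of Cox8b, was not among the matching genes of the table. These points share libraries that hold muscle RNA, and no test was made of the correlations. The changes of the 3 isoforms under CR, 1.77 for Cox6a2, 1.58 for Cox8b and 1.29 for Cox7a1 in the mean of 4 pairs, did not pass limma's test, and without the libraries of high muscle level they were −0.61, −0.02 and 0.44.

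Cox8b was also present in 2 livers of low muscle level. The d3 AL male at replicate 4 had 194 normalised counts at a muscle level of 2.11, and the d3 CR male at replicate 5 had 44.9 at 1.86. In these livers Ucp1, the uncoupling protein that defines brown fat, had 609 and 235 normalised counts, and the mean log2 level of 3 brown fat markers was 7.51 and 7.15. The mean log2 level of white fat markers was likewise 7.41 and 7.23 in them. In mice, Cox8b and Cox7a1 are also expressed in brown fat. Among the skeletal muscle markers, 1 of 16 was called under CR in the mean of 4 pairs, with a list median of 2.11, while the 8 hepatocyte markers tested had 6 lower and a median of −0.46. Over all genes tested 23.2% were higher and 22.6% lower. The part of muscle, fat or hepatocyte RNA in the diet result was not tested beyond the fits without the livers of high muscle level.

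**Figure D5:**
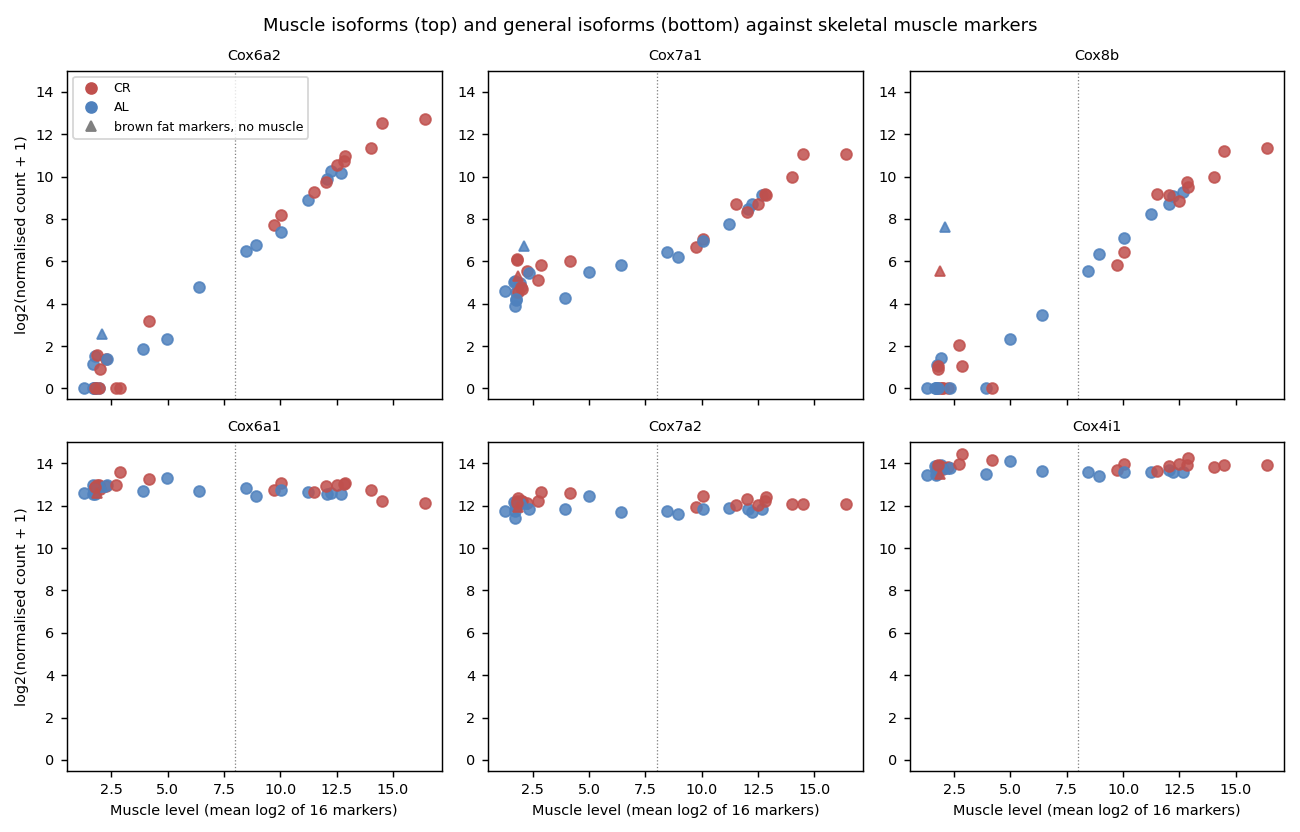
Log2(normalised count + 1) (y axis) of the muscle isoforms Cox6a2, Cox7a1 and Cox8b (top) and of Cox6a1, Cox7a2 and Cox4i1 (bottom) against the muscle level (x axis) in 40 livers. The top row climbs with the muscle level (r = 0.93 to 0.99), the bottom row does not (r = −0.35 to 0.07), and triangles mark livers of low muscle level with a brown fat marker level of 7 or more.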

How the data were processed

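RNA-seq of liver was made with the KAPA Hyperprep kit, per the labels' protocols. FastQC, MultiQC, Trimmomatic, kallisto, DESeq2 and the GRCm38 build are named in the submitters' processing notes, whose versions the sources used here do not state. A table of signal values was deposited by the authors, 1 per gene and library, that are read counts divided by a size factor for each library: the deposited values came out as whole reads for 100% of entries within a tolerance of 0.01. The authors also deposited log2 fold changes and p-values for d3 against WT.

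Repeated rows (115 of 17839) were dropped and genes with a mean under 10 were left out. Values were tested as log2(value + 1) by limma 3.58.1 (R 4.3.3) with a mean-variance trend, in 1 fit of the 8 groups, with Benjamini-Hochberg adjustment over 13776 genes and a threshold of 0.05. This scale understates changes of low genes. EdgeR 4.0.16's quasi-likelihood test on the recovered reads was an alternative, and others were no filter, a pseudocount of 10, median-of-ratios scaling, library weights, the groups of a contrast alone, a muscle covariate, libraries left out singly and the libraries of muscle level 8 or more left out. Removing a length trend (lowess span 0.3, transcript lengths from GENCODE M21), doing so without the muscle-rich libraries, and scaling to total reads were added after seeing the data. The code was tested on simulated data. Mice of a group are taken as separate animals from their labels.

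The members and lists were chosen with earlier results of these data known. Named genes were, per complex, up to 3 called members with the largest increase and decrease in the mean diet contrast and the uncalled member of highest level; for sex, genotype and interactions, up to 6 called members in each direction; the muscle isoforms with their partners; and up to 3 called genes of each other list. Other members were named for their known roles, after their values were seen.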

Additional observations from a re-analysis of the deposited data

Results flagged for a closer look

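Within groups of 5 livers, 104 sets of values were tested for a value far from the others, and 6 were found, where chance gives about 1 in 20. The mean log2 level of complex II was 13.10 in the d3 AL male at replicate 4, against 12.87 to 12.92 in the other 4 livers, and 12.40 in the d3 AL female at replicate 5, against 13 to 13.09. The mean log2 level of complex IV was 12.57 in the WT CR female at replicate 4, against 12.74 to 12.78. In the WT AL male at replicate 5, whose muscle level was 11.23, Cox6a2 had 478 normalised counts, against 0 to 2.62 in the other 4 livers, Cox7a1 had 213, against 16.9 to 31.2, and Cox8b had 298, against 0 to 1.17.

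The diet change of Cox7b differed between the sexes in d3 mice, with an interaction of −0.59 ± 0.16 on the log2 scale (limma adjusted p = 0.04; edgeR adjusted p = 0.0432). The call was lost with no filter (adjusted p = 0.0501 by limma) and when the muscle-rich libraries were left out (limma adjusted p = 0.106). Scaled to total reads, Cox7b had −0.30 ± 0.15 and was not called (limma adjusted p = 0.196). Ndufaf4 was called there in the opposite direction, with 0.84 ± 0.23 (limma adjusted p = 0.0131), where the all-gene median was 0.28. The cause was not tested.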

How the results depend on the processing

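No paired analysis was possible because replicate numbers were given in accession order and pair no mice. Of the counts of members, 218 values under alternatives other than leaving out 1 library stayed within 1.5 times of the reported count and 42 moved. Members higher under CR in WT males were 74 scaled to total reads (where 28.8% of all genes were), 8 without the muscle-rich libraries, 14 with the length trend removed and 5 with both. In d3 males they were 71 (31.2% of all genes), 1, 19 and 3 in that order, and 31 with library weights; in WT females 26 scaled to total reads (17.3% of all genes) and 3 with weights; in d3 females 25 without the muscle-rich libraries and 2 with both; in the mean of 4 pairs 36 and 22. Members lower were 1 with library weights in WT males, d3 males and WT females, 1 in d3 females with a pseudocount of 10, the groups alone or the length trend removed, and 2 in the mean with the length trend removed. For males against females, calls in WT AL mice were 47 scaled to total reads, 1 with the length trend removed and 0 with the groups alone, without the muscle-rich libraries or with both. In WT CR mice they were 3 with weights; in d3 AL mice 18 scaled to total reads, 3 with weights and 1 with the length trend removed. In d3 CR mice they were 17 without the muscle-rich libraries, 4 with the length trend removed and 0 with the groups alone or both. In the mean of 4 pairs they were 61, 8 and 5 scaled to total reads, with the length trend removed and with both. Scaled to total reads, the all-gene median of that mean was itself −0.16, against −0.02 on the deposited scaling. The share of all genes called there is not given. The diet by sex count in d3 mice was 0 with no filter, without the muscle-rich libraries, with the groups alone, with the length trend removed or with both. Scaled to total reads, Ndufaf4 was called in place of Cox7b, in the opposite direction. The cause of these moves was not tested, except that leaving out livers leaves fewer samples.

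Leaving out 1 library at a time gave 66 to 71 members higher and 1 lower in the mean of 4 pairs, 12 to 40 higher in WT males, 10 to 22 in d3 males, 0 in WT females (0 to 1 lower) and 62 to 67 in d3 females. The 12 came without the WT AL male at replicate 4 and the 10 without the d3 CR male at replicate 4. For males against females the ranges were 0 to 5 in WT AL, 0 to 1 in d3 AL, 10 to 34 in d3 CR and 14 to 28 in the mean; the lowest of the mean came without replicate 3 of WT AL females or of WT AL males. Genotype stayed at 0, and diet by sex in d3 mice was 0 to 1. Among named members, signs turned for Ndufa8 (−0.05 with both steps), Cox6a1 (−0.01 with the length trend removed), Cox6a2 (−0.61 without the muscle-rich libraries, −0.11 with the muscle covariate, −0.76 with both steps) and Cox8b (−0.02 and −0.21 without the muscle-rich libraries and with both steps), none of which was called. Depth limits the lowest members, such as Ndufv3 and Cox6b2.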

Other observations

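Marker lists of other cell types were compared under CR against AL in the mean of 4 pairs, by limma adjusted over all genes. In that contrast 23.2% of all genes tested were higher and 22.6% lower. Of 2 cardiac markers tested 1 was higher, of 3 brown fat markers 1 was higher (Ppargc1b, also counted among the regulators), and of 5 white fat markers 0 passed, with a median log2 change of 1.18. Of 7 exocrine pancreas markers 0 passed, with a median of −0.18. Of 5 erythroid markers 1 was lower, Alas2, the first enzyme of haem synthesis in red cells. Of 5 liver macrophage markers 3 were lower, with a median of −0.52, and of 7 endothelial and stellate markers 2 were higher and 1 lower, with a median of 0.25.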
